A study of Mus musculus with 4 samples.

Results

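The vacuolar proton pump (V-ATPase) and the Ragulator and Rag GTPase proteins that bind it on the lysosome were followed here at the transcript level in mouse osteoclast precursors with and without Piezo1, a mechanically gated cation channel. The 32 genes were chosen by symbol, and 31 of them were found among the 12799 genes of the deposited table. Atp6v0e2, a paralog of the small membrane subunit e, was not analysed here. All 31 passed the filter on low values (1 CPM or more in at least 2 libraries) that left 11781 genes for testing.

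The libraries were made from poly(A) RNA of bone marrow-derived monocytes of 12-week-old female mice. Non-adherent marrow cells, collected after 2 days, were grown in 30 ng/mL M-CSF, which keeps monocytes alive and dividing, and then for 3 days in 30 ng/mL M-CSF plus 50 ng/mL RANKL, the osteoclast-inducing cytokine. Control cells (n = 2) carried Piezo1 alleles flanked by loxP sites (written Piezo1f/f in the labels) without a recombinase. Knockout cells (n = 2) were Csf1r-iCre;Piezo1fl/fl, so they had the floxed alleles too, together with a Cre driven by the promoter of the M-CSF receptor, which is active in the monocyte lineage. The controls lacked Cre, so effects of the transgene and of Piezo1 loss cannot be told apart. Replicates are described as biological, and the sources used here do not say whether animals were pooled. All 4 libraries carry the same batch value.

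The V-ATPase is a rotary motor in 2 parts. The cytosolic V1 sector hydrolyses ATP, and the membrane-embedded V0 sector carries protons across the membrane. In most cells the pump acidifies lysosomes and endosomes, and in the osteoclast it is also inserted into the ruffled border, where it secretes the acid that dissolves bone mineral. On the lysosome surface the pump contacts Ragulator, a scaffold that anchors the Rag GTPases, which recruit the growth kinase complex mTORC1 when amino acids are plentiful.

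Levels are given in CPM, gene reads scaled by library size, and levels of different genes are compared as CPM per kilobase of the gene's merged exons. Piezo1 was at 430 and 384 CPM in the controls and at 61.0 and 56.2 CPM in the knockouts, in the direction of the labels. Recovered library totals were 14122118 to 18897927 reads. The 31 members had between 258 and 87434 reads per library, so that counting error was small for most of them. Even so, control 1 and control 2 lay apart beyond counting error (exact 95% Poisson intervals that do not overlap) for 14 of the 31 members, as did the 2 knockouts for 14. These intervals cover counting error only. The osteoclast markers Acp5, Ctsk, Mmp9, Calcr, Itgb3, Nfatc1, Dcstamp, Ocstamp and Oscar were all measured. Their summed level was 55471 to 58400 CPM in the controls and 56687 to 70511 CPM in the knockouts. Most of this sum came from Ctsk, Mmp9 and Acp5, with control means of 23442, 20560 and 9576 CPM. The 6 macrophage markers summed to 3312 to 3888 CPM and 3713 to 4034 CPM, with Fcgr1 near the floor at 0.98 to 1.75 CPM, and the 9 stromal markers to 1718 to 2135 CPM and 1113 to 1225 CPM. Markers of B cells, of T and NK cells and of mast cells and basophils were not analysed here.

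No pump, Ragulator or Rag transcript passed the test between genotypes. Of the 31 members 0 rose and 0 fell at a Benjamini-Hochberg adjusted p under 0.05 in limma, against 0.161% of all genes tested. At an unadjusted p under 0.05 there were also 0, where the share of all genes was 4.90%. edgeR, with 0.161% of all genes called, and DESeq2, with 0.560%, each called 0 members, and each had 0 members at an unadjusted p under 0.05 (4.81% and 2.68% of all genes). The median log2 fold change of the members was 0.07, with 22 positive and 9 negative, and that of all genes was 0.0016. Each member had a limma adjusted p of 0.99975. The fold changes ran from −0.23 for Atp6v0e to 0.20 for Rragd.

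Each 95% confidence interval covers 1 gene and rests on 2 libraries per genotype. The intervals are no joint bound on the differences of the 31 members. Across the 31 members the lowest 95% confidence limit was −0.62 and the highest 0.76 on the log2 scale, both for Atp6v0a1. They correspond to 0.652-fold and 1.70-fold. For other pump subunits the limits were closer to 0, but not evenly so. Tcirg1 had an interval of −0.24 to 0.32, Atp6v1a one of −0.21 to 0.41 and Atp6v0d2 one of −0.35 to 0.39. Those of Atp6v0c, −0.51 to 0.17, and Atp6v0e, −0.53 to 0.08, reached lower. The sign itself changed in 18 of the 31 members when 1 library was left out. In 25 of the 31 members the larger of the 2 differences between same-genotype libraries exceeded the difference between genotypes, and the same held for 78.9% of all genes tested.

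**Figure D1:**
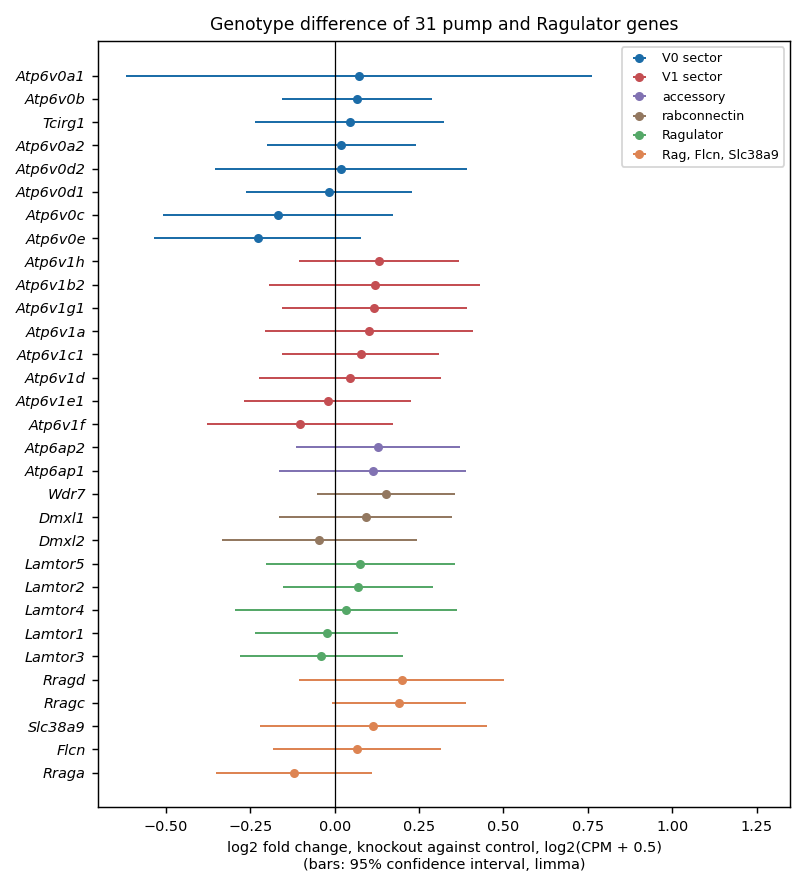
Log2 fold change of each member between knockout and control libraries (x axis, log2(CPM + 0.5) scale), with points for limma estimates, bars for 95% confidence intervals and colours for the 6 groups of genes. Every interval crosses 0, and that of Rragc, −0.0073 to 0.39, comes closest to leaving it.

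In the membrane sector the osteoclast isoforms dominated. Atp6v0d2, the isoform of the d subunit that is induced by RANKL and takes part in precursor fusion (chromosome 4, 19876841 to 19922605, minus strand, GRCm38), was at 4279 and 4271 CPM in the controls and at 3948 and 4753 CPM in the knockouts. Knockout 1 was the lowest and knockout 2 the highest of the 4 libraries, so the groups overlapped. On the log2 scale the fold change was 0.02 (SE 0.16, limma adjusted p = 0.99975). Its broadly expressed paralog Atp6v0d1 was at 195 and 229 CPM in the controls and 215 and 203 CPM in the knockouts, again with overlap. Per kilobase, Atp6v0d2 was the most abundant of all members, at a mean of 1588 CPM per kb, and made up 93.5%, 92.5%, 92.4% and 93.9% of the d subunit signal in control 1, control 2, knockout 1 and knockout 2.

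Tcirg1 encodes a3, the isoform of the proton-conducting a subunit that carries the pump to the osteoclast's ruffled border and whose loss causes osteopetrosis (chromosome 19, 3896050 to 3907133, minus strand, GRCm38). It was at 1534 and 1512 CPM in the controls and at 1477 and 1670 CPM in the knockouts, with the knockouts on either side of both controls. Atp6v0a2, the isoform known from the Golgi, was at 97.4 and 88.1 CPM in the controls and 93.1 and 94.8 CPM in the knockouts. Its level, and any ratio to it, are uncertain. Of the 45-base words (the read length) of its longest coding transcript, 10.98% also occur in 4930404A12Rik, matched on either strand. That gene overlaps 9.86% of the Atp6v0a2 exon bases on the other strand, so an unstranded count could include its reads. Atp6v0a1, an isoform known from neurons and lysosomes, was at 39.0 and 24.0 CPM in the controls and 43.0 and 24.1 CPM in the knockouts. It differed between libraries of the same genotype more than any other member, by 0.69 in the controls and 0.82 in the knockouts on the log2 scale, and by 0.07 between genotypes. Tcirg1 took 94.2% and 95.1% of the length-scaled a subunit signal in the controls, and in the knockouts it took 94.0% and 95.3%.

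The balance between paralogs was compared by the log2 ratio of their length-scaled levels in each library. The ratio of Atp6v0d2 to Atp6v0d1 was 14.5 and 12.3 for controls 1 and 2, with 12.1 and 15.5 for knockouts 1 and 2, a difference of 0.04 between genotypes in log2 ratio, below the SD of 0.16 within controls and 0.25 within knockouts. The ratio of Tcirg1 to Atp6v0a2 was 23.0 and 25.1 for controls 1 and 2, with 23.2 and 25.7 for knockouts 1 and 2. The ratio of Tcirg1 to Atp6v0a1 was 56.0 and 89.7 for controls 1 and 2, with 49.0 and 98.5 for knockouts 1 and 2, which spread wider within each genotype than between them. In the exact 2-sided permutation test, 4 ratios, that of Rragd to Rragc included, gave p of 0.667 to 1.0 and an adjusted p of 1.0 each. With 2 libraries per genotype this test cannot go below 0.333. All 4 ratios overlapped between groups.

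**Figure D2:**
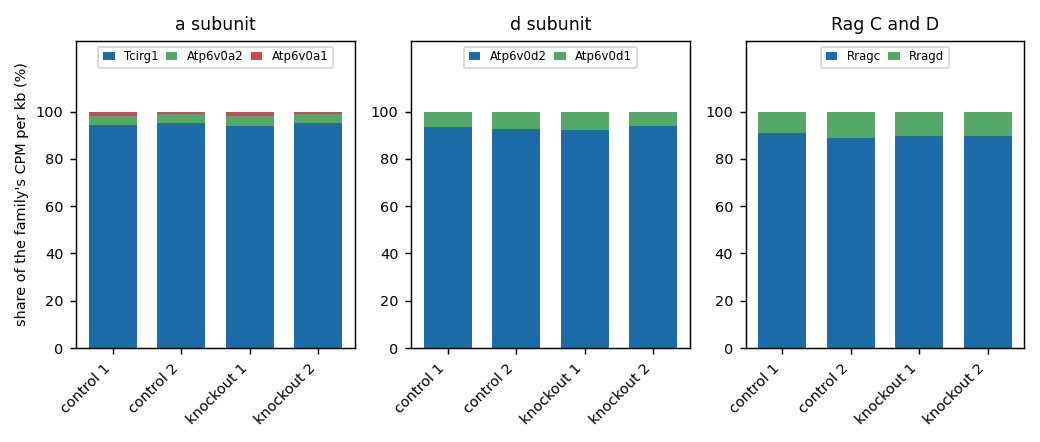
Share of each isoform (y axis, percent of the family's summed CPM per kb of merged exons) in each of the 4 libraries, for the a subunit, the d subunit and the Rag C and D genes. Tcirg1 holds 94.0% to 95.3%, Atp6v0d2 92.4% to 93.9% and Rragc 88.7% to 90.8% in all 4 libraries.

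The other V0 genes encode the proton-carrying ring (Atp6v0b and Atp6v0c) and the small subunit e (Atp6v0e). Atp6v0e was at 495 and 454 CPM in the controls and at 358 and 457 CPM in the knockouts, with a log2 fold change of −0.23 (95% confidence interval −0.53 to 0.08). Knockout 1 alone lay below the controls, since knockout 2 lay between them, and without knockout 1 the fold change was −0.05. Knockout 1 was also the library with the lowest share of mitochondrially encoded transcripts, 1.38% against 2.27% to 3.13% in the other libraries. The part of this share in the result was not tested. Atp6v0c was at 485 and 369 CPM in the controls and 406 and 349 CPM in the knockouts, and control 1 stood above the other 3. Its level is uncertain, because 33.2% of the 45-base words of its longest coding transcript also occur in transcripts of other genes, chiefly the pseudogene Atp6v0c-ps2. Atp6v0b averaged 354 ± 17.8 CPM over the controls, with 371 ± 18.1 CPM over the knockouts (SD, n = 2 each). Here too an unstranded count could include reads of another gene, Gm12841, which overlaps 11.85% of the Atp6v0b exon bases on the other strand.

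In the V1 sector the fold changes were small and mostly positive. The sector median was 0.09, against 0.02 in the V0 sector and 0.0016 over all genes. Of the 8 V1 genes 6 were positive and 2 negative, and of the 8 measured V0 genes 5 were positive and 3 negative. The catalytic subunit Atp6v1a was at 2956 and 2986 CPM in the controls and 3163 and 3210 CPM in the knockouts. Atp6v1b2, the non-catalytic partner in the ATP-hydrolysing ring, was at 2960 and 2791 CPM and at 3030 and 3214 CPM. For both genes each knockout lay above each control, by a log2 fold change of 0.10 for Atp6v1a and 0.12 for Atp6v1b2.

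Atp6v1h, the regulatory subunit that couples the sectors, was at 509 and 572 CPM in the controls and 589 and 592 CPM in the knockouts, with a log2 fold change of 0.13 (95% confidence interval −0.11 to 0.37). Its 2 controls differed by 0.17 on the log2 scale, more than the genotypes did. Atp6v1g1, a subunit of the peripheral stalks, was at 382 and 467 CPM in the controls and 447 and 469 CPM in the knockouts, with control 1 below the rest. For Atp6v1g1 20.4% of the 45-base words are shared with other annotated genes, so its value is uncertain. Atp6v1c1, which links the stalks to the membrane sector, was at 870 and 896 CPM in the controls and 931 and 931 CPM in the knockouts. The central rotor genes Atp6v1d and Atp6v1f had log2 fold changes of 0.05 and −0.10, and Atp6v1e1, a peripheral stalk gene, one of −0.02. The level of Atp6v1f is uncertain, since it shares 13.8% of its 45-base words with another annotated gene.

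The values of the 2 genotypes did not overlap in 9 of the 31 members, which is near the 31.9% of all genes tested. Knockouts were higher in 8 of these (16.5% of all genes) and lower in 1 (15.4%). The 8 were Atp6v1a, Atp6v1b2, Atp6v1c1, Atp6v1h, Atp6ap2, Wdr7, Rragc and Rragd, and the other was Rraga. By group they were 4 of 8 V1 genes, 1 of 2 accessory genes and 1 of 3 rabconnectin genes. The Rag genes with Flcn and Slc38a9 gave 3 of 5, the V0 genes 0 of 8 and the Ragulator genes 0 of 5. Whether the sectors differ was not tested.

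The levels of the subunits were uneven per kilobase. V1 genes had a median of 294 CPM per kb, from 58.0 for Atp6v1h to 565 for Atp6v1b2, a 9.74-fold range. V0 genes had a median of 119 CPM per kb, from 4.96 for Atp6v0a1 to 1588 for Atp6v0d2, a 320-fold range. These values depend on which exons are counted as the gene's length. With the longest coding transcript in place of merged exons, the V1 median was 413 and the V0 median 248 CPM per kb, and the ranges were 3.85-fold and 209-fold. Atp6v0d2 stayed first and Slc38a9 last among the 31 members with either length, at 1588 and 1.18 CPM per kb of merged exons.

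**Figure D3:**
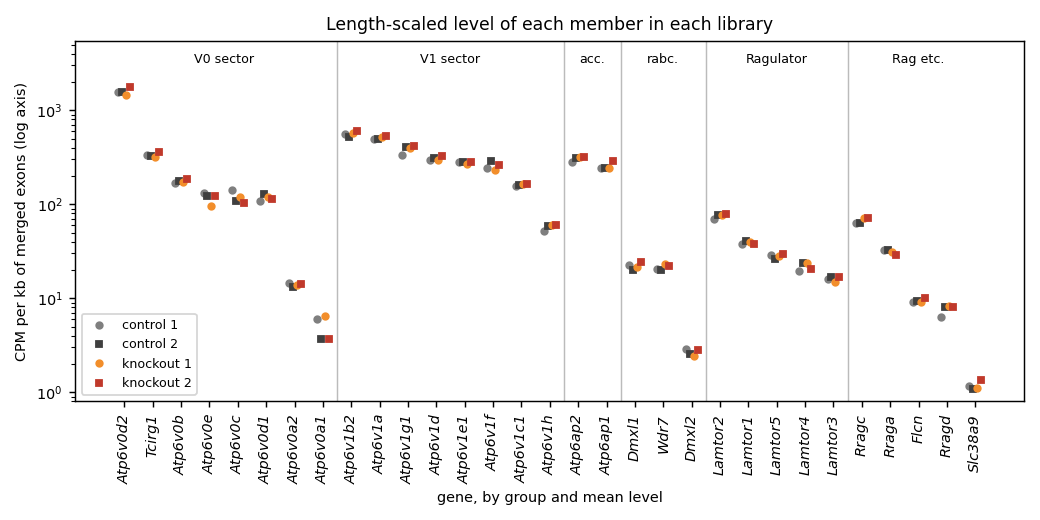
Level of each member in each of the 4 libraries (y axis, CPM per kb of merged exons, log axis), ordered by mean level within groups; acc. stands for accessory, rabc. for rabconnectin and Rag etc. for the Rag genes with Flcn and Slc38a9. The 4 libraries of a gene lie close together beside the spread from 1.18 for Slc38a9 to 1588 for Atp6v0d2.

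The accessory proteins assemble and guide the pump. Atp6ap2, also known as the prorenin receptor, was at 730 and 810 CPM in the controls and 843 and 839 CPM in the knockouts, so that both knockouts were higher, with a log2 fold change of 0.13 (95% confidence interval −0.12 to 0.37). Atp6ap1 averaged 740 ± 1.26 CPM over the controls, with 803 ± 105 CPM over the knockouts, where knockout 2 alone stood above the controls.

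Dmxl1, Dmxl2 and Wdr7 encode rabconnectin proteins, relatives of the yeast complex that joins V1 to V0. Wdr7 was at 207 and 205 CPM in the controls and 235 and 223 CPM in the knockouts, with a log2 fold change of 0.15 (95% confidence interval −0.05 to 0.35, limma unadjusted p = 0.123). Both knockouts were above both controls, by more than the libraries of either genotype differed. Dmxl1 was the more abundant of the Dmxl genes, at 494 and 439 CPM in the controls and 467 and 528 CPM in the knockouts. Dmxl2 was at 38.4 and 33.9 CPM in the controls and 32.5 and 37.6 CPM in the knockouts, and the groups overlapped for both genes.

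The 5 Ragulator genes, Lamtor1 to Lamtor5, encode the scaffold that holds the Rags on the lysosome, with Lamtor1 as the lipid-anchored subunit. Their fold changes lay between −0.04 for Lamtor3 and 0.08 for Lamtor5, with 3 positive and 2 negative and a median of 0.03. Lamtor1 was the most abundant in CPM, at 127 ± 6.06 over the controls, with 124.8 ± 4.04 over the knockouts. Per kilobase of merged exons Lamtor2 was highest, at 75.4 CPM per kb, and Lamtor3 lowest, at 16.2. By the longest coding transcript the lowest was Lamtor5, at 28.3. Lamtor1, Lamtor3 and Lamtor5 share 20.7%, 19.7% and 15.7% of their 45-base words with other annotated genes, so these levels are uncertain.

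Of the Rag GTPases, which work as a pair of Rag A or B with Rag C or D, Rragc had the smallest p of all members. Rragc was at 210 and 209 CPM in the controls and at 237 and 241 CPM in the knockouts. The 2 libraries of each genotype lay close together, and the knockouts were 14.2% higher in mean CPM. On the log2 scale the fold change was 0.19 (SE 0.09, 95% confidence interval −0.0073 to 0.39, limma unadjusted p = 0.0569, adjusted p = 0.99975), and it ranged from 0.18 to 0.20 with 1 library left out. An unstranded count could include reads of 4930535I16Rik, which overlaps 7.90% of the Rragc exon bases on the other strand.

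Rragd, whose transcription is known to be driven by the lysosomal regulators TFEB and MITF, was at 32.9 and 41.3 CPM in the controls and 42.6 and 42.2 CPM in the knockouts. Its fold change on the log2 scale was 0.20 (SE 0.13, 95% confidence interval −0.11 to 0.50). Control 2 lay just below the knockouts, and control 1 was the library that stood apart. Without control 1 the log2 fold change was 0.04, and without control 2 it was 0.36. Rragd made up 9.21% and 11.3% of the Rag C and D signal per kilobase in the controls, and in the knockouts it made up 10.4% and 10.2%.

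Rraga was at 53.3 and 53.1 CPM in the controls and 50.7 and 47.0 CPM in the knockouts, the single member for which both knockouts were lower. Its log2 fold change was −0.12 (95% confidence interval −0.35 to 0.11). Flcn encodes folliculin, which activates Rag C and D and thereby controls TFEB-family factors, and was at 39.5 ± 0.76 and 41.4 ± 2.89 CPM. Slc38a9, a lysosomal arginine sensor, had the fewest reads of all members and was at 19.6 and 18.1 CPM in the controls and 18.5 and 22.6 CPM in the knockouts.

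TFEB-family factors bind the palindromic E-box CACGTG, the core of the lysosomal gene motif, so the 250 bases before the start of each gene in RefSeq (GRCm38.p6) were searched for it. A window was found for 22 of the 31 measured members, and 5 of these (22.7%) held CACGTG, against 994 of 10000 genes of the table with a window (9.94%) and 6.02% of all 32851 windows. The 5 were Atp6v0b, Atp6v1a, Lamtor1, Lamtor4 and Rragc. The longer TCACGTGA, which contains CACGTG and reads the same on both strands, was found in 1, Atp6v1a, against 1.85% of the table's genes. The stretches below are shown because they place the motif in the member with the smallest p, in the catalytic subunit and in a pair of Ragulator genes. CACGTG is in capitals, and each is written 5′ to 3′ on the strand of the gene.
Rragc: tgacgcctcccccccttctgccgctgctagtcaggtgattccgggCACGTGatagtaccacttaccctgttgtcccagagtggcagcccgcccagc
Atp6v1a: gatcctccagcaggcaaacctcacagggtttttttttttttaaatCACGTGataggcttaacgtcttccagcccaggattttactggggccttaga
Lamtor1: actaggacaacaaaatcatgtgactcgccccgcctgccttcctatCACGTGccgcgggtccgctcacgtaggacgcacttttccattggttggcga
Lamtor4: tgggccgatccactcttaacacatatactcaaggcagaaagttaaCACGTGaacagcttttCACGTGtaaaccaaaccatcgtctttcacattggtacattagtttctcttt

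The Rragc stretch lies at chr4:123917276-123917371 on the plus strand, with the motif beginning 112 bases before the start. That of Atp6v1a lies at chr16:44139340-44139435 on the minus strand, with the motif beginning 131 bases before the RefSeq start. In GENCODE M21 the Atp6v1a gene spans 44085402 to 44139705, so this stretch lies inside the gene as annotated there. Lamtor1 has the motif 68 bases before its start (chr7:101905724-101905819, plus strand), and Lamtor4 has 2 copies, the first 120 bases before its start (chr5:138255317-138255428, plus strand). None of these 4 stretches overlaps an exon annotated in GENCODE M21. The 4 genes had log2 fold changes of 0.19, 0.10, −0.02 and 0.03 in the order printed. The match is a description of the letters and no binding was measured. Tfeb, Tfe3 and Mitf themselves had log2 fold changes of −0.02, −0.07 and −0.10.

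The genes around the pump and the Rags did not pass either. Of 69 genes in 9 lists, 60 were tested, and limma, edgeR and DESeq2 each found 0 that rose and 0 that fell. Unadjusted p under 0.05 was reached by 1 gene in limma, 1 in edgeR and 0 in DESeq2, against 4.90%, 4.81% and 2.68% of all genes tested. Their median log2 fold change was 0.02, with 35 positive and 25 negative, and groups were separate in 16 of 60, against 31.9% of all genes tested. That single gene was Itfg2, a subunit of the KICSTOR scaffold that tethers an inhibitor of the Rags, at 9.81 and 10.8 CPM in the controls and 7.26 and 7.66 CPM in the knockouts (log2 fold change −0.44, limma unadjusted p = 0.0267, adjusted p = 0.940).

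The gene with the smallest p was taken from each of the other lists. Vma21, an assembly chaperone of the V0 sector, was at 108 and 107 CPM in the controls and 122 and 125 CPM in the knockouts (log2 fold change 0.20, limma unadjusted p = 0.0518). Fnip1, the folliculin partner, was at 175 and 167 CPM and at 189 and 188 CPM (0.14), and Tsc2, which restrains mTORC1, at 59.0 and 55.4 CPM and at 62.3 and 70.5 CPM (0.21). Car2, the carbonic anhydrase that supplies protons for secretion, was at 192 and 179 CPM in the controls and 210 and 213 CPM in the knockouts (0.19). In each of these 4 genes both knockouts lay above both controls, and each had a limma adjusted p of 0.99975. Picking the smallest p of a list favours genes whose groups do not overlap, so this separation is no further result. The same p was found for Oxr1, a TLDc-domain protein of a family that binds the pump (0.11), Castor2, a relative of the arginine sensor Castor1 (0.18), Bloc1s1, a BORC subunit that positions lysosomes (−0.36), and Atp6v1g2, the neuronal G isoform, at 3.14 ± 0.12 and 2.85 ± 0.66 CPM. Both knockouts lay above both controls for Castor2 and below them for Bloc1s1, and the groups overlapped for Oxr1 and Atp6v1g2. The level of Bloc1s1 is uncertain, since Rdh5 overlaps 55.9% of its exon bases on the same strand. The isoforms Atp6v0a4, Atp6v1b1, Atp6v1c2, Atp6v1e2, Atp6v1g3 and Rragb were not analysed here.

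The positive median of the members rested on knockout 2. Against the control mean, the median of the 31 members was −0.0017 and 0.0017 in the controls, 0.0091 in knockout 1 and 0.11 in knockout 2 on the log2 scale. The V1 genes stood at 0.077 in knockout 1 and 0.11 in knockout 2, against −0.025 and 0.025 in controls 1 and 2. The V0 genes stood at −0.019 and −0.0096 in the knockouts, against 0.036 and −0.036 in the controls. Knockout 2 was the highest library for 17 of the 31 members and the lowest for 3, whereas control 1 was the lowest for 12. In the same library the median of the 9 osteoclast markers stood 0.34 above the control mean, against −0.09 in knockout 1. Controls 1 and 2 were at 0.09 and −0.09. Of the 9 markers 8 were above the control mean in knockout 2, as were 8 in control 1. Groups were separate in 1 of the 9, Dcstamp, against 31.9% of all genes tested. Dcstamp was at 666 and 649 CPM in the controls and 838 and 877 CPM in the knockouts (log2 fold change 0.38, limma adjusted p = 0.475). The 6 macrophage markers had medians of 0.06 in knockout 1 and 0.09 in knockout 2, between the 0.13 and −0.13 of controls 1 and 2. The 9 stromal markers had medians of −0.45 and −0.55 in the knockouts, against −0.098 and 0.098 in the controls. For 7 of these 9 both knockouts lay below both controls (15.4% of all genes tested). DESeq2 called 4 of the 9 (0.560% of all genes), namely Col1a1, Col1a2, Col3a1 and Sparc, all lower. By limma and edgeR 0 were called. The part of these markers in the members' levels was not tested, and in bulk RNA more cells of a type and more RNA per cell cannot be told apart. Without knockout 2 the median of the members was 0.0091.

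**Figure D4:**
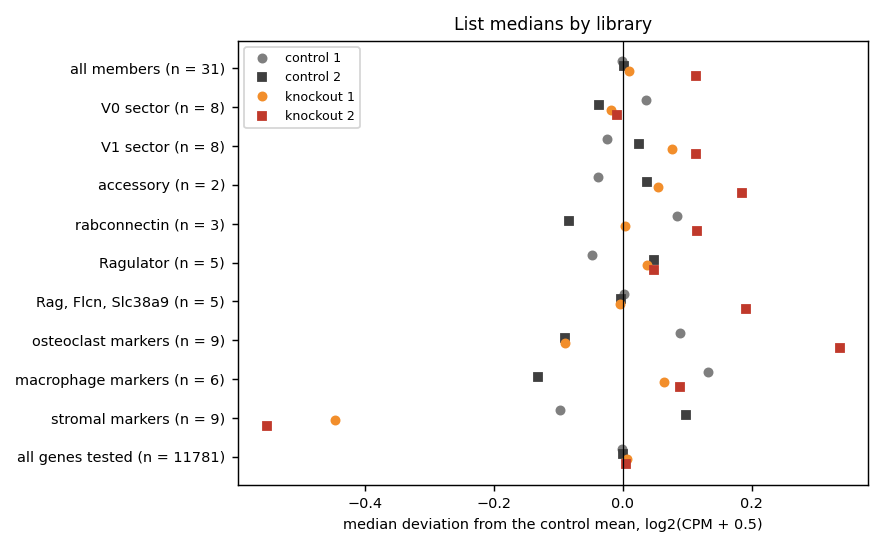
Median deviation of each gene list from its control mean in each library (x axis, log2(CPM + 0.5) scale), with n for the genes in the list and circles and squares for replicates 1 and 2. Knockout 2 stands at 0.11 for all members and 0.34 for the osteoclast markers, and both knockouts lie left of both controls for the stromal markers.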

How the data were processed

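The authors deposited 1 table of normalised signal per gene and library. Per the submitters' processing notes, STAR, featureCounts from Subread, edgeR and the build mm10, also called GRCm38, were used, with no versions. The sources used here do not give the annotation release, the strand setting or the filter on low genes. Dividing each deposited signal by the value of 1 read in its library gave whole reads (100% of values within 0.001 reads), and the signal is read here as TMM-scaled CPM. On those recovered reads edgeR called 19 genes.

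Genotypes were compared with limma-trend on log2(CPM + 0.5), 2-sided and with genotype as the sole term. The Benjamini-Hochberg adjustment ran over the 11781 genes that reached 1 CPM in 2 or more libraries. Fold changes on this scale understate changes of low genes. Values are means ± SD over 2 libraries. All 31 measured members were named. Values per library were given for Tcirg1, Atp6v0a1, Atp6v0a2, Atp6v0d1, Atp6v0d2, Atp6v0e, Rragc and Rragd, which have paralogs, and for the 6 members outside these with the smallest p (Wdr7, Atp6v1h, Atp6ap2, Rraga, Atp6v0c and Atp6v1g1), and for other members where they bear on a comparison. In each surrounding list the gene with the smallest p was named. Tfeb, Tfe3, Mitf, Atp6v1a, Atp6v1b2 and Atp6v1c1 were given in addition. Members and lists were chosen with earlier results of these data known.

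Gene lengths and overlaps came from GENCODE M21 on GRCm38, which may differ from the release the authors used. Words of 45 bases, the read length, were matched between transcripts. The 6 pairs of libraries all differed beyond sampling noise in a chi-square test over genes. The fit was tested on simulated reads. Fits used DESeq2 1.42.0, edgeR 4.0.16 and limma 3.58.1 in R 4.3.3. Tables and plots used matplotlib 3.10.9, SciPy 1.17.1, pandas 2.3.3 and NumPy 2.4.6 with Python 3.11.15.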

Additional observations from a re-analysis of the deposited data

How the results depend on the processing

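The limma count of 0 called members held in each of the 15 alternatives. These were other pseudocounts (0.1 and 1), no filter or one at 5 CPM, 2 other variance models, 2 other scalings, edgeR, DESeq2, the replicate number as a block and each library left out. Over all genes the count depended on the setting. It was 19 as reported, 4 without an intensity trend, 66 with DESeq2 and 6 to 93 with 1 library left out. The median log2 fold change of the members was 0.04 to 0.07 in the 4-library fits and 0.0091 to 0.11 with 1 library left out, and the smallest adjusted p of a member in those fits was 0.387, for Atp6v0e without knockout 2, where Atp6v0e and Atp6v0a1 had an unadjusted p under 0.05. Without control 2 the same held for Rragd and Atp6v0c. Replicate numbers are shared by the genotypes, but the planned fit did not take them as pairs. Deviations of control 1 and knockout 1 had a correlation of −0.0016 across genes. A correlation over all genes cannot exclude an effect that some genes share by replicate number. With the replicate block 89 genes were called, among them 0 members.

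Scaling by totals changed the sign of Atp6v0a2 (−0.0038) and Atp6v0d2 (−0.0048), with a shift of −0.02 in the median of all genes. With 1 library left out, 13 members kept their sign and 18 did not, namely Atp6ap1 (−0.022 to 0.25), Atp6v0a1 (−0.34 to 0.48), Atp6v0a2 (−0.051 to 0.091), Atp6v0c (−0.37 to 0.028), Atp6v0d1 (−0.13 to 0.10), Atp6v0d2 (−0.11 to 0.15), Atp6v1d (−0.026 to 0.12), Atp6v1e1 (−0.057 to 0.016), Atp6v1f (−0.24 to 0.035), Atp6v1g1 (−0.027 to 0.26), Dmxl2 (−0.15 to 0.057), Flcn (−0.0036 to 0.14), Lamtor1 (−0.072 to 0.025), Lamtor2 (−0.00075 to 0.14), Lamtor3 (−0.13 to 0.049), Lamtor4 (−0.11 to 0.18), Slc38a9 (−0.026 to 0.26) and Tcirg1 (−0.044 to 0.13). The difference in log2 ratio between genotypes also changed sign with 1 library left out, with ranges of −0.53 to 0.48 for Tcirg1 to Atp6v0a1, −0.051 to 0.10 for Tcirg1 to Atp6v0a2, −0.14 to 0.21 for Atp6v0d2 to Atp6v0d1 and −0.16 to 0.17 for Rragd to Rragc. The share of Rragd was 10.3% of the Rag C and D signal by merged exons and 8.33% by the longest coding transcript. The causes of these shifts were not tested.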

Other observations

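These patterns were noticed in the values and are given as descriptions. Atp6v0a1 was high in both libraries numbered 1 and low in both numbered 2, at 39.0, 24.0, 43.0 and 24.1 CPM in control 1, control 2, knockout 1 and knockout 2. The macrophage genes Lyz2, a lysozyme, and Adgre1, a macrophage surface receptor, had the same order. Lyz2 was at 561, 344, 655 and 360 CPM and Adgre1 at 49.9, 26.3, 51.7 and 36.0 CPM. The macrophage markers Csf1r, Cd68 and Itgam did not have this order and were highest in knockout 2, at 1570, 1607 and 459 CPM. Fcgr1, near the floor, was at 1.75, 1.47, 1.58 and 0.98 CPM. The labels give all libraries the same batch value, and the sources used here do not say what the numbers share.

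Rnasek, which encodes a small membrane protein associated with the pump, was at 190 and 174 CPM in control cells and at 134 and 222 CPM in knockout cells. Its level is uncertain, because the gene Gm21988 overlaps 67.68% of its exon bases on the same strand. For Rnasek the knockouts were the lowest and the highest of the 4 libraries. Atp6v0e was likewise lowest in knockout 1, at 358 CPM. Atp6v0b, at 342 CPM in control 1, and Atp6v0c, at 349 CPM in knockout 2, had their lowest values in other libraries.

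Dmxl2 made up 11.4% and 11.3% of the length-scaled signal of Dmxl1 and Dmxl2 together in the controls, and in the knockouts it made up 10.3% and 10.5%. This share was computed after the planned ratios, and the difference was not tested.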
